A study of Mus musculus with 7 samples.

Results

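Sertoli cells, the somatic cells that enclose germ cells in the seminiferous tubules, secrete the factors that keep, mature and feed those germ cells. The 9 genes described here encode such secreted factors: *Gdnf*, *Kitl*, *Amh*, the inhibin and activin subunits *Inha*, *Inhba* and *Inhbb*, *Dhh*, *Cxcl12* and *Trf*. They were taken by name, and the estimated counts and TPM (transcripts scaled to a fixed total, a level per length) of all listed transcripts of each gene were summed, 9 genes of 21928 in all. Bulk RNA-seq libraries came from whole testes of 4 wild-type and 3 *Meioc* KO C57BL/6N pups, 1.5 testes from 1 pup in each library. All pups in both groups received WIN 18,446, which blocks retinoic acid synthesis, daily from P2 to P8 (0.1 mg per g of body weight), then retinoic acid at 0.0125 mg/g on P9, and testes were taken 6.75 days after that dose. This treatment synchronized the germ cells, so that the testes were enriched for preleptotene spermatocytes, the cells about to enter meiosis. The *Meioc* KO pups carried the null allele *Meioc* tm1.1Dpc in every cell, after backcrossing to C57BL/6N; MEIOC is a germ cell protein needed for timely meiotic entry. The question here is whether transcripts of the Sertoli factors, and of their receptors, differed between these genotypes.

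Each factor has its own target cells. GDNF acts through GFRA1 and RET on undifferentiated spermatogonia and maintains the stem cell pool, and KITL (stem cell factor) acts through KIT on differentiating spermatogonia. The inhibin alpha subunit (*Inha*) pairs with a beta subunit (*Inhba* or *Inhbb*) to form inhibin, which lowers FSH release from the pituitary, whereas pairs of beta subunits form activins. AMH causes regression of the Müllerian ducts in the male fetus, DHH signals to Leydig and peritubular cells through PTCH1, CXCL12 is a chemokine for CXCR4, and transferrin (*Trf*) carries iron to cells that bear its receptor. Several of these genes, among them *Kitl*, *Cxcl12*, *Inha* and *Inhba*, are also transcribed in other cells of the testis. In a bulk sample, fewer cells of a type and less RNA per cell cannot be told apart.

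For *Kitl* and *Cxcl12*, the listed transcripts encode different proteins, so the stretch that sets them apart is shown (GENCODE transcripts, GRCm38). In *Kitl* (chr10:100015630-100100416, plus strand), transcript Kitl-202 includes exon 6 (chr10:100080857-100080940), which encodes the main cleavage site for release of soluble KITL, and transcript Kitl-201 skips it. The rest of their coding sequences is identical. The capitals mark the 84 bases of exon 6, between 15 coding bases of each neighbouring exon.
Kitl-202: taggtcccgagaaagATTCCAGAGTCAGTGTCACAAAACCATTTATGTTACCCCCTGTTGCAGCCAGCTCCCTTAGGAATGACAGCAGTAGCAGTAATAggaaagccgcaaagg
Kitl-201: taggtcccgagaaagggaaagccgcaaagg

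In *Cxcl12* (chr6:117168535-117181367, plus strand), the 3 listed transcripts share 267 coding bases and differ in what follows before the stop codon. Cxcl12-202 adds 0 bases, Cxcl12-203 adds 12 and Cxcl12-201 adds 90, which encode a tail rich in basic residues (final coding stretch at chr6:117176086-117176176). The last shared bases are in lower case and the added ones in capitals.
Cxcl12-202: tacctggagaaagctttaaacaag
Cxcl12-203: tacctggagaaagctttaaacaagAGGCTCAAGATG
Cxcl12-201: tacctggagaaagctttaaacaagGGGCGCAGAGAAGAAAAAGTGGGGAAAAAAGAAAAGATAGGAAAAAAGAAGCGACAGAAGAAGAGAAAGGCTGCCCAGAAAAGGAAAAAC

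The libraries held 12537852 to 20552702 estimated counts. Counts were scaled by TMM, which aligns libraries on the bulk of their genes, and are given as CPM (counts scaled to a common library total); 3 counts are worth 0.151 to 0.237 CPM. Of 13630 genes tested with edgeR, 1513 passed an adjusted p of 0.05, of which 1059 were higher in wild type and 454 were higher in *Meioc* KO. That division was 810 and 904 with library size alone as the scaling. It was 440 and 2082 with limma on log2(TPM + 1), which changes the test, the unit and the scaling together, and where the median log2 fold change of all genes moved from -0.01 to -0.23. *Meioc* itself stood at 468, 660, 664 and 720 CPM in wild type, beside 400, 300 and 413 CPM in *Meioc* KO, a log2 fold change of 0.76 (edgeR adjusted p = 0.021), in the direction its labels imply. These counts are summed over the whole gene, so the *Meioc* level in the KO libraries does not measure intact transcript. Its groups did not overlap, and without any of 5 libraries (wild-type replicates 2, 3 and 4, *Meioc* KO replicates 2 and 3) taken singly its adjusted p was 0.057 to 0.064 with edgeR. The median log2 fold change also moved with transcript length, from 0.17 in the shortest to -0.13 in the longest of 5 length classes. All 16 fixed Sertoli cell markers passed the filter, and their summed level was 3747 to 3942 CPM in wild type and 3599 to 3874 CPM in *Meioc* KO. Throughout, fold changes are wild type over *Meioc* KO, so that a negative value is a higher level in *Meioc* KO.

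All 9 factors passed the filter on low values, and 1 of them, *Kitl*, passed the test (higher in *Meioc* KO). That is the same share as the 11.1% of all tested genes called in either direction. In single directions, 1 of 9 was called higher in *Meioc* KO against 3.33% of all genes, and 0 of 9 higher in wild type against 7.77%. A count of 1 does not set the list apart from all genes. The CPM of the groups did not overlap for 5 of the 9, against 26.2% of all genes. Of these 5, *Gdnf*, *Kitl*, *Inhba* and *Cxcl12* had each *Meioc* KO library above each wild-type library, and *Trf* had each wild-type library above each *Meioc* KO library. *Gdnf* met the filter (at least 1 TPM in at least 3 libraries) only through the *Meioc* KO group. It had 1.38, 1.61 and 1.32 TPM there and 1.04, 0.727, 0.362 and 0.878 TPM in wild type. Its lack of overlap, its fold change and its test are therefore not independent of the filter. *Gdnf* is thus not an independent part of the 5 without overlap. The median log2 fold change of the 9 was -0.04, beside -0.01 over all tested genes. Calls counted in the gene lists below are to be read beside the same 11.1% of all tested genes. The count of all genes called rose from 1513 to 2172 without wild-type replicate 1 and to 2112 without *Meioc* KO replicate 1. It fell to 296, 275 and 478 without wild-type replicate 2, 3 or 4, and to 353 and 131 without *Meioc* KO replicate 2 or 3. Each call said to be gained or lost with a library left out is to be read beside these counts.

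**Figure D1:**
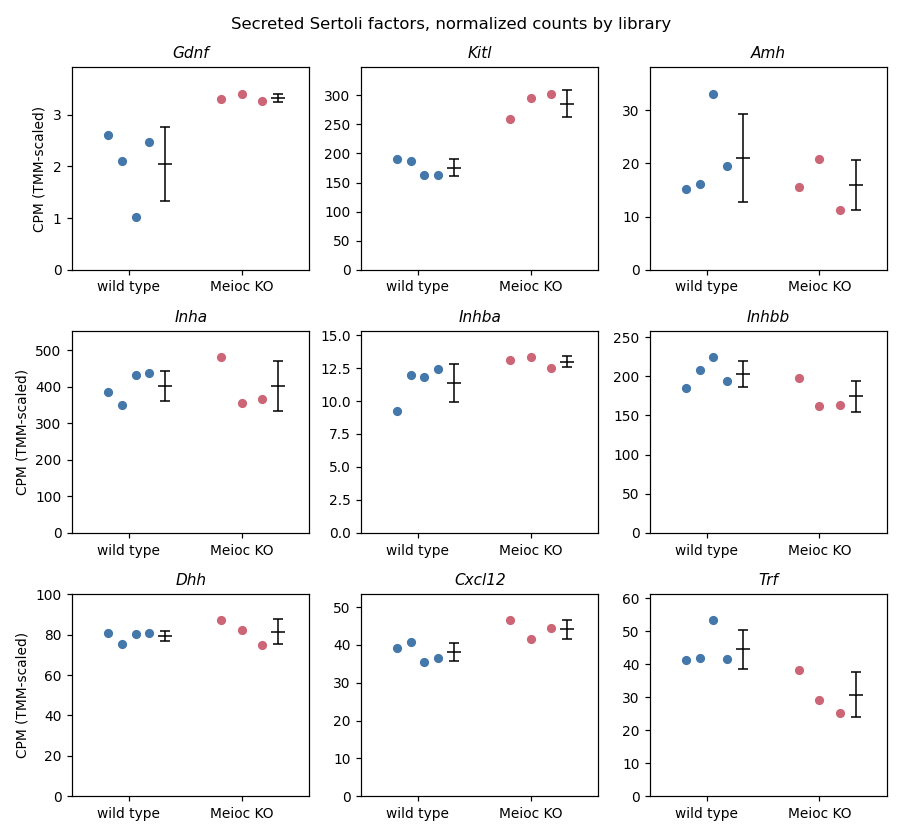
CPM (TMM-scaled counts, linear axes from 0) of the 9 secreted Sertoli factors in each library: blue points are the 4 wild-type and red points the 3 *Meioc* KO libraries, with the mean and SD in black beside each group. The groups are apart for *Gdnf*, *Kitl*, *Inhba*, *Cxcl12* and *Trf*, and share their range for *Amh*, *Inha*, *Inhbb* and *Dhh*.

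The factors spanned a wide range of levels per length. *Inha* was highest, with a mean of 309 TPM over the 7 libraries (231 to 398), a level above that of 97.3% of tested genes. *Kitl* followed with 102 TPM (62.8 to 160). Then came *Inhbb* with 42.4 TPM (37.3 to 47.3), *Dhh* with 39.0 TPM (32.5 to 47.9), *Cxcl12* with 29.4 TPM (22.1 to 36.3), *Trf* with 20.8 TPM (14.2 to 26.3) and *Amh* with 12.8 TPM (8.08 to 20.8). *Inhba* with 3.43 TPM (2.65 to 4.59) and *Gdnf* with 1.05 TPM (0.362 to 1.61) were lowest, and *Gdnf* exceeded only 1.50% of tested genes. The ranges of *Inhbb* and *Dhh*, *Dhh* and *Cxcl12*, *Cxcl12* and *Trf*, and *Trf* and *Amh* overlapped, and the order was kept within 6, 7, 6 and 7 of the 7 libraries, respectively. *Inha* alone made up 49.9% to 60.7% of the summed TPM of the 9 genes in a library.

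*Kitl* was the factor whose transcripts rose in *Meioc* KO testes. It had 190, 188, 163 and 162 CPM in wild-type replicates 1 to 4 and 259, 295 and 303 CPM in *Meioc* KO replicates 1 to 3. The lowest *Meioc* KO library stood well above the highest wild-type one. The mean was 176 ± 14.9 CPM (SD, n = 4) in wild type and 286 ± 23.5 CPM (SD, n = 3) in *Meioc* KO, 1.63-fold higher. The log2 fold change was -0.70 (SE 0.091, 95% interval -0.90 to -0.50, edgeR adjusted p = 0.0053), and 2.78% of tested genes had a lower one. The call was kept when each library was left out in turn, with edgeR adjusted p between 0.0021 and 0.036. It stayed with the length trend removed (log2 fold change -0.66), and was lost in the fit with a replicate block (log2 fold change -0.66, edgeR adjusted p = 0.058). Replicate number 4 exists only in wild type, so that fit takes nothing about genotype from this library. With the block, 109 of all 13630 tested genes were called, against 1513 without it.

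Nearly all *Kitl* reads were assigned to the transcript with exon 6 shown above. Kitl-202 took 96.9% to 98.9% of the gene's estimated counts in a library, Kitl-201 took 1.05% to 1.77%, and the short transcript Kitl-204 the rest. In TPM, which divides by transcript length, the Kitl-202 share was 87.0% ± 8.32 (SD, n = 4) in wild type and 87.6% ± 6.55 (SD, n = 3) in *Meioc* KO, with p = 0.97 in a two-sided exact permutation test. Kitl-201 held 6.22% ± 1.34 and 5.30% ± 0.577 of the TPM. The Kitl-204 share ran from 0% to 18.8% of TPM and rested on at most 46.97 estimated counts. Kitl-201 is listed with 1260 bases and Kitl-202 with 5648, so reads in the long end of Kitl-202 count for it alone, and a form without exon 6 but with that end is not among the listed transcripts. These shares are kallisto estimates, not counts of reads across the exon 6 junctions.

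**Figure D2:**
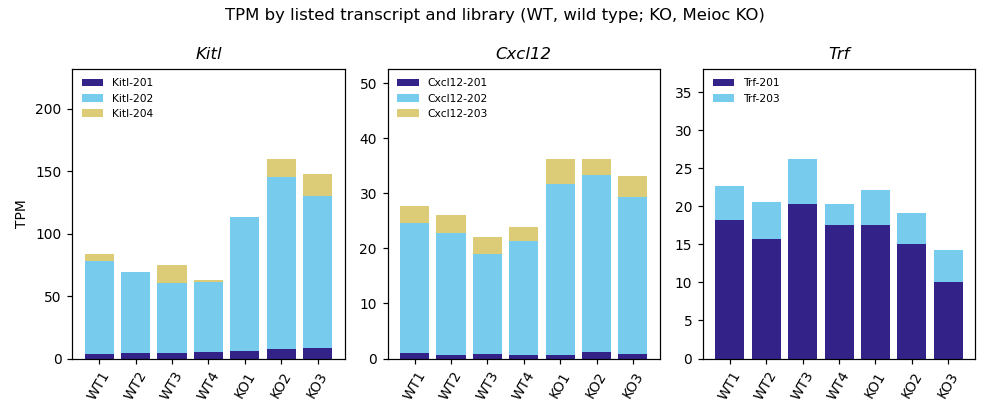
TPM of each listed transcript of *Kitl*, *Cxcl12* and *Trf*, stacked, in wild-type (WT) and *Meioc* KO (KO) libraries; no error bar is drawn, as each bar is 1 library. Kitl-202, Cxcl12-202 and Trf-201 formed most of each bar in each library.

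*Kit*, the KITL receptor of differentiating spermatogonia, went the opposite way. Its level was 219, 241, 248 and 186 CPM in wild type, against 163, 147 and 146 CPM in *Meioc* KO, without overlap. Wild type over *Meioc* KO, the log2 fold change was 0.55 (SE 0.11, edgeR adjusted p = 0.018). The call was lost without wild-type replicate 2 or 3 or *Meioc* KO replicate 2 or 3 (adjusted p up to 0.071 with edgeR), and with limma on log2(TPM + 1), where the log2 fold change was 0.30 (adjusted p = 0.088). *Kit* is made mainly by germ cells in the tubules. Of 11 germ cell markers, 5 were higher in wild type, against 7.77% of all tested genes, and 1, *Zbtb16*, was higher in *Meioc* KO. The summed level of the 11 was 2691 to 3320 CPM in wild type and 1943 to 2135 CPM in *Meioc* KO. *Kit* is itself among the 5 and within the sum, so neither is independent of the *Kit* difference. The part of germ cells in the *Kit* difference was not tested.

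*Gdnf* had few reads. It was covered by 33, 30, 15 and 49 reads in wild type and 62, 47 and 60 reads in *Meioc* KO, or 2.61, 2.10, 1.01 and 2.47 CPM against 3.31, 3.41 and 3.26 CPM. The *Meioc* KO libraries lay close together and above the wild-type ones, among which replicate 3 was lowest. The difference did not pass the test, with a log2 fold change of -0.69 (SE 0.29, 95% interval -1.34 to -0.05, edgeR adjusted p = 0.14), and without wild-type replicate 3 it was -0.47. The size was close to that of *Kitl*, and the error was larger (SE 0.29 against 0.091). As *Gdnf* met the filter only through the *Meioc* KO group, this size, its interval and its p are not independent of the filter. The *Gdnf* to *Kitl* ratio of TPM was 1.25%, 1.05%, 0.485% and 1.40% in wild type and 1.22%, 1.01% and 0.892% in *Meioc* KO. Its groups overlapped, and an exact permutation test (two-sided) gave p = 0.97, where the smallest possible p is 0.0571.

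Among the GDNF receptors, *Ret* had 19.5, 16.7, 16.2 and 15.7 CPM in the wild-type libraries, compared with 18.4, 30.6 and 25.5 CPM in *Meioc* KO, where replicate 1 lay within the wild-type range. Its log2 fold change was -0.54 (SE 0.16, edgeR adjusted p = 0.062). It passed with DESeq2 (adjusted p = 0.020), without wild-type replicate 1 or *Meioc* KO replicate 1, and in further alternatives, 7 of 17 in all. *Gfra1*, the coreceptor that binds GDNF, had 5.87 to 9.74 CPM in wild type and 8.21 to 9.35 CPM in *Meioc* KO (log2 fold change -0.14, edgeR adjusted p = 0.63). Of 12 fixed genes that respond to GDNF in spermatogonia, 7 passed the filter and 0 were called. Within that list the largest differences were *Bcl6b*, a transcription factor of stem cell maintenance (-0.72, edgeR adjusted p = 0.078, and -0.40 without *Meioc* KO replicate 2), and *Cxcr4* (0.55, adjusted p = 0.14).

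The inhibin alpha subunit gene *Inha*, the most abundant of the 9, had nearly equal means. It had 386, 350, 431 and 437 CPM in wild-type testes, beside 481, 356 and 367 CPM in *Meioc* KO, and *Meioc* KO libraries were the highest and 2 of the 3 lowest. The log2 fold change was -0.0022 (SE 0.12, 95% interval -0.27 to 0.27, edgeR adjusted p = 0.99). Its sign turned positive without *Meioc* KO replicate 1 (0.15) and without wild-type replicate 1 or 2.

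The beta subunits differed in level and in the sign of their differences. *Inhbb*, the beta B subunit gene, had 185, 208, 224 and 194 CPM in wild type, against 197, 162 and 164 CPM in *Meioc* KO, where replicate 1 lay within the wild-type range. Its log2 fold change was 0.22 (SE 0.099, 95% interval -0.0015 to 0.44, edgeR adjusted p = 0.17), and -0.015 with limma on log2(TPM + 1). *Inhba*, the beta A subunit gene, had 9.25, 12.0, 11.8 and 12.5 CPM in the wild-type libraries, compared with 13.1, 13.3 and 12.5 CPM in *Meioc* KO. The groups touched without overlapping, and the log2 fold change was -0.19 (SE 0.13, edgeR adjusted p = 0.36). Of the 2 listed *Inhba* transcripts, Inhba-201 held all reads and Inhba-202 was listed at 0 in each library.

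Within a library, where scaling between libraries plays no part, *Inhba* TPM was 6.26%, 7.41%, 6.53% and 7.97% of *Inhbb* TPM in wild type. In *Meioc* KO it was 8.39%, 10.5% and 9.79%. The groups did not overlap, and the mean log2 ratio differed by -0.44, with p = 0.0571 in a two-sided exact permutation test, the smallest p that 4 against 3 libraries can give (0.17 after Benjamini-Hochberg adjustment over the 3 ratios computed). The difference kept its sign without each library in turn, from -0.53 to -0.37. *Inhbb* thus outweighed *Inhba* 9.52-fold to 16.0-fold per length in these testes. *Inha* TPM was 5.37 to 7.13 times the summed beta subunit TPM in wild type and 6.83 to 7.76 times in *Meioc* KO, with overlapping groups (p = 0.17, exact permutation test).

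**Figure D3:**
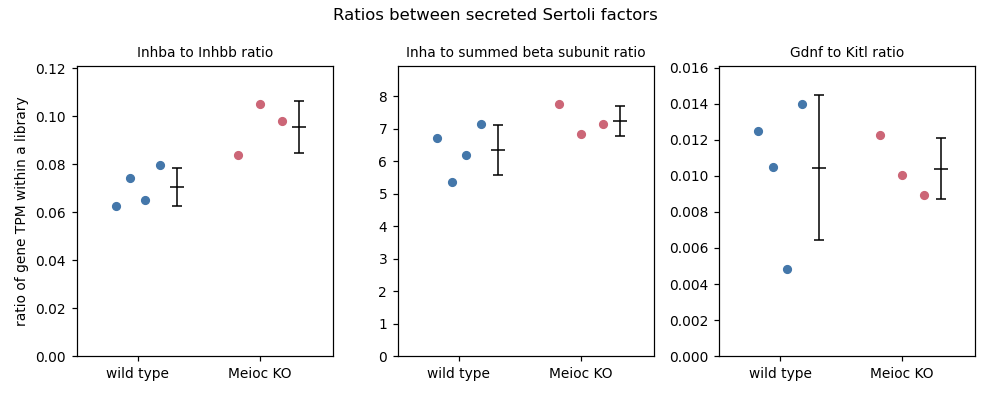
Ratios of gene TPM within each library (linear axes from 0): blue points are the 4 wild-type and red points the 3 *Meioc* KO libraries, with the mean and SD in black. The *Inhba* to *Inhbb* ratio was between 0.0626 and 0.0797 in wild type and between 0.0839 and 0.105 in *Meioc* KO, and the other ratios overlapped between the groups.

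Receptors and mediators of activin and inhibin were mostly without a call. *Tgfbr3* (betaglycan), which raises the affinity of inhibin for activin receptors, rose in *Meioc* KO from 96.8, 77.6, 88.0 and 93.4 CPM in wild type to 122, 120 and 118 CPM. Its log2 fold change was -0.43 (SE 0.088, edgeR adjusted p = 0.019), and the call was lost without wild-type replicate 2 or 3 or *Meioc* KO replicate 2 or 3 (adjusted p up to 0.069 with edgeR). The type II activin receptor genes *Acvr2a* and *Acvr2b* had log2 fold changes of 0.10 and -0.37, and the type I receptor genes *Acvr1b* and *Acvr1* had -0.27 and 0.03, with edgeR adjusted p of 0.42, 0.12, 0.13 and 0.96. Without wild-type replicate 1, *Acvr1b* passed at -0.35 (edgeR adjusted p = 0.037). *Acvr1c*, another type I receptor gene, was below the filter. Of 15 fixed antagonists and mediators of activin and AMH signalling, 13 were tested and 2 were called, both higher in *Meioc* KO. That is near the 11.1% of all tested genes called in either direction. The list was mixed in direction: 7 of the 13 had a negative log2 fold change, and the median was -0.08.

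The called genes of that list were *Smad3*, which carries activin and TGF-beta signals to the nucleus, and *Tgfbi*, an extracellular matrix gene induced by TGF-beta. *Smad3* had 57.1, 64.6, 63.2 and 59.4 CPM in wild-type testes, beside 69.6, 119 and 112 CPM in *Meioc* KO, with a log2 fold change of -0.71 (SE 0.16, edgeR adjusted p = 0.024). Its call was lost without wild-type replicate 2, 3 or 4 or *Meioc* KO replicate 2 or 3 (adjusted p up to 0.091 with edgeR). *Tgfbi* had 59.0, 61.9, 56.1 and 56.5 CPM in wild type, against 74.4, 93.2 and 98.6 CPM in *Meioc* KO, with a log2 fold change of -0.60 (SE 0.10, edgeR adjusted p = 0.013), lost without *Meioc* KO replicate 3 (adjusted p = 0.059). In both genes *Meioc* KO replicate 1 was the lowest of its group and still above each wild-type library.

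*Amh*, a product of immature Sertoli cells that declines as they mature, varied more among wild-type libraries than between the groups. It had 15.1, 16.2, 33.1 and 19.5 CPM in the wild-type libraries, compared with 15.6, 20.8 and 11.3 CPM in *Meioc* KO, and wild-type replicate 3 stood highest. This gave a log2 fold change of 0.41 (SE 0.29, 95% interval -0.24 to 1.05, edgeR adjusted p = 0.37), and it ranged from 0.10 without wild-type replicate 3 to 0.64 without *Meioc* KO replicate 2. The type II receptor gene *Amhr2*, which Sertoli and Leydig cells express, had 524, 535, 623 and 534 CPM in wild-type testes, beside 535, 452 and 415 CPM in *Meioc* KO, and replicate 3 was again the highest wild-type library. Its log2 fold change was 0.25 (SE 0.10, edgeR adjusted p = 0.14), and 0.36 without *Meioc* KO replicate 1 (adjusted p = 0.042), and that of the type I receptor gene *Bmpr1a* was -0.10 (adjusted p = 0.42).

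*Dhh* was the steadiest of the 9 across wild-type libraries, with a coefficient of variation of 3.25%. It had 81.0, 75.6, 80.5 and 80.7 CPM in wild type, against 87.1, 82.4 and 74.9 CPM in *Meioc* KO, which span the wild-type range. The log2 fold change was -0.04 (SE 0.078, 95% interval -0.21 to 0.14, edgeR adjusted p = 0.79). Its receptor gene *Ptch1*, itself a hedgehog target, had 148, 130, 142 and 140 CPM in the wild-type libraries, compared with 146, 250 and 172 CPM in *Meioc* KO, where replicate 2 stood highest. For *Ptch1*, the log2 fold change was -0.43 (SE 0.16, edgeR adjusted p = 0.099), and it was -0.18 without *Meioc* KO replicate 2 and -0.59 without *Meioc* KO replicate 1 (adjusted p = 0.029). With DESeq2 it passed (adjusted p = 0.041). *Smo*, the signal transducer that patched receptors hold back, had a log2 fold change of -0.18 (edgeR adjusted p = 0.16).

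Of 12 hedgehog targets and mediators, all tested, 1 was called, not above the 11.1% of all tested genes called in either direction. A negative log2 fold change was seen in 9, and the median of the list was -0.22, beside -0.01 over all tested genes. The called gene was *Boc*, a cell surface protein that binds hedgehog ligands, with 29.4, 32.4, 31.4 and 35.1 CPM in wild-type testes, beside 41.0, 40.6 and 43.4 CPM in *Meioc* KO. Its log2 fold change was -0.38 (SE 0.087, edgeR adjusted p = 0.027), and the call was lost without wild-type replicate 2 or 3 or *Meioc* KO replicate 2 or 3 (adjusted p up to 0.097 with edgeR). With the length trend removed, *Boc* was at -0.35 and *Ptch1* at -0.34 on the log2 scale. The part of the length trend in the median of this list was not tested.

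*Cxcl12* had 39.1, 40.9, 35.6 and 36.6 CPM in wild type, against 46.5, 41.5 and 44.6 CPM in *Meioc* KO. The groups did not overlap, but *Meioc* KO replicate 2 and wild-type replicate 2 lay within 1 CPM of each other. Its log2 fold change was -0.22 (SE 0.085, 95% interval -0.41 to -0.03, edgeR adjusted p = 0.12). It passed with limma on log2(TPM + 1), at -0.48 (adjusted p = 0.024), where all tested genes had a median of -0.23.

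Among the *Cxcl12* transcripts shown above, the form with no added bases dominated. Cxcl12-202 held 82.1% to 88.2% of the gene's TPM in a library, Cxcl12-203 held 8.39% to 14.3%, and Cxcl12-201, with the basic tail, 1.81% to 3.78%. The mean share of Cxcl12-202 was 84.6% ± 1.83 (SD, n = 4) in wild type and 86.8% ± 1.26 (SD, n = 3) in *Meioc* KO (p = 0.17, two-sided exact permutation test). The receptor gene *Cxcr4* had 9.25, 16.6, 15.4 and 11.3 CPM in the wild-type libraries, compared with 10.3, 6.67 and 9.68 CPM in *Meioc* KO, which overlapped at the lowest wild-type library. *Ackr3*, a receptor that takes up CXCL12 without G protein signalling, had a log2 fold change of 0.29 (SE 0.14, edgeR adjusted p = 0.18), and 0.48 without *Meioc* KO replicate 1 (adjusted p = 0.026).

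*Trf* was the factor with the largest difference toward wild type. It had 41.3, 41.9, 53.2 and 41.5 CPM in wild-type testes, beside 38.1, 29.1 and 25.1 CPM in *Meioc* KO. The wild-type libraries clustered near 42 CPM apart from replicate 3, and *Meioc* KO replicate 1 lay closest to them. The log2 fold change was 0.53 (SE 0.15, 95% interval 0.19 to 0.87, edgeR adjusted p = 0.053), just short of the threshold. It passed with DESeq2 (adjusted p = 0.013), with scaling on the Sertoli markers (0.031), after removal of the trend with transcript length (0.044) and without *Meioc* KO replicate 1 (0.018), and missed it in the 13 other alternatives. Without wild-type replicate 3 the log2 fold change was 0.43 (edgeR adjusted p = 0.13). The 2 listed transcripts, Trf-201 and Trf-203, have coding sequences of equal length, and Trf-201 held 79.9% ± 4.46 (SD, n = 4) of the TPM in wild type and 76.3% ± 4.77 (SD, n = 3) in *Meioc* KO (p = 0.46, two-sided exact permutation test).

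*Tfrc*, the transferrin receptor gene through which cells take up iron, was higher in wild type as well. It had 162, 200, 189 and 257 CPM in wild type, against 136, 135 and 135 CPM in *Meioc* KO, where the 3 libraries were almost equal. That difference was 0.58 on the log2 scale (SE 0.14, edgeR adjusted p = 0.028), and the call was lost without wild-type replicate 2 or 3 or *Meioc* KO replicate 2 or 3 (adjusted p up to 0.091 with edgeR). With limma on log2(TPM + 1) the log2 fold change was 0.30 (adjusted p = 0.071). *Tfr2*, the second transferrin receptor gene, had a log2 fold change of 0.11 (edgeR adjusted p = 0.77). Of 12 fixed iron handling genes, *Tfrc* was the 1 called, and the median log2 fold change was 0.01.

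**Figure D4:**
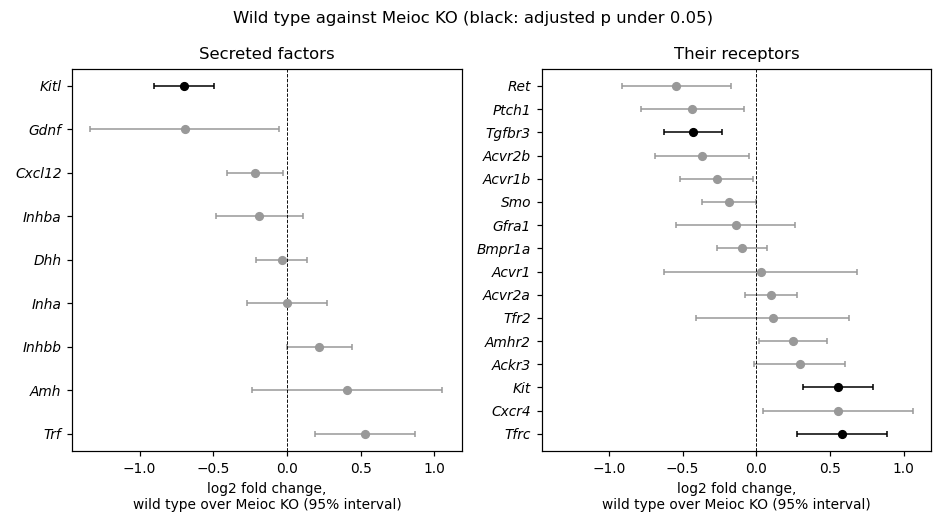
Log2 fold changes, wild type over *Meioc* KO, of the 9 secreted factors and of 16 tested receptor genes, with 95% intervals from edgeR; black marks an adjusted p under 0.05. *Kitl* (-0.70) and *Tgfbr3* (-0.43) lie on the *Meioc* KO side, and *Kit* (0.55) and *Tfrc* (0.58) on the wild-type side.

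The rest of the Sertoli cell transcripts gave the background to these values. Of the 16 Sertoli markers, 1 was called, *Gata4*, a transcription factor, at -0.33 (edgeR adjusted p = 0.025), and the median log2 fold change was -0.02. Of 25 other secreted products of Sertoli cells, 23 were tested and 1 was called, *Defb19*, a beta-defensin, at 0.61 (edgeR adjusted p = 0.024). Of these calls, that of *Gata4* was lost without wild-type replicate 2, 3 or 4 or *Meioc* KO replicate 2 or 3 (adjusted p up to 0.083 with edgeR), and that of *Defb19* without wild-type replicate 2 or 3 or *Meioc* KO replicate 2 or 3 (up to 0.079). With the length trend removed, *Defb19* was at 0.35 (edgeR adjusted p = 0.072). With counts rescaled so that the Sertoli markers were level, *Kitl* stayed at -0.71 (edgeR adjusted p = 0.0084).

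Markers of other testis cells were read beside the factors that those cells can also make. The germ cell markers higher in wild type were *Tex101* (1.27), *Sycp3* (1.09), *Dazl* (0.58), *Kit* and *Mael*, and *Zbtb16*, a marker of undifferentiated spermatogonia, was higher in *Meioc* KO (-0.86, edgeR adjusted p = 0.021). The *Zbtb16* call was lost without wild-type replicate 2, 3 or 4 or *Meioc* KO replicate 3 (adjusted p up to 0.066 with edgeR), and that of *Sycp3* without *Meioc* KO replicate 3 (0.051). Of the 7 Leydig cell markers 0 were called, with a summed level of 281 to 567 CPM in wild type and 336 to 647 CPM in *Meioc* KO. *Star* and *Cyp17a1*, steroidogenic genes, had log2 fold changes of -1.10 and 0.61 with standard errors of 0.75 and 0.90. Of 7 peritubular myoid markers 1 was called, *Des* (-0.37, edgeR adjusted p = 0.049), with sums of 691 to 786 CPM in wild type and 661 to 782 CPM in *Meioc* KO. That call was lost whichever library was left out (adjusted p of 0.066 to 0.13 with edgeR). Of 7 endothelial markers (85.9 to 106 CPM in wild type, 88.9 to 109 CPM in *Meioc* KO) and 7 macrophage markers (292 to 308 and 263 to 327 CPM), 0 were called. The largest differences there were 0.58 for *Emcn* and -0.30 for *Cdh5*, and -0.24 for *Csf1r* and 0.20 for *Cd14*. Without *Meioc* KO replicate 1, *Cdh5* passed at -0.40 (edgeR adjusted p = 0.048). None of these sums was at 0, and their part in the values of the 9 factors was not tested.

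As a description, the genes whose log2 CPM followed each factor most closely over the 7 libraries were found among the 10245 tested genes whose mean was 10 CPM or more. They were *Atxn3* and *Washc5* for *Kitl* (Pearson r of 0.99 each), *Scrn2* and *Scml4* for *Trf* (0.99 each), *Fahd1* and *Tagln2* for *Gdnf* (0.98 and 0.97), and *Rnps1* for *Amh* (0.97). For the inhibin subunits they were *Aacs* and *C2* with *Inha* (0.98 and 0.97), *Ephb4* and *Kdm1b* with *Inhba* (0.98 and 0.96), and *Cltb* and *Ndufa10* with *Inhbb* (0.98 each). *Gtpbp3* and *Stard4* followed *Dhh* (0.97 and 0.95), and *Tmpo* and *Ric8a* followed *Cxcl12* (0.98 each). With 7 libraries and so many genes searched, values of this size mark the nearest profiles only; the 7 points share their libraries and scaling. Among the 9 factors themselves, *Kitl* ran closest with *Cxcl12* (r = 0.84) and most opposed to *Trf* (r = -0.90), and in both of these, as in *Kitl*, the groups did not overlap.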

How the data were processed

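RNA was measured in 7 libraries, grouped by the genotype in their labels. Reads were trimmed with cutadapt 1.8 and quantified with kallisto 0.44.0 on GENCODE Basic vM15 (mm10), with strand and bias correction. The authors deposited estimated counts per protein-coding transcript, without normalization between libraries. They also deposited TPM, renormalized over protein-coding transcripts. Both were summed by gene here after matching 43020 of 43139 transcripts to GENCODE vM21 (same build); the 119 others held at most 0.282% of a library's counts. Rounded counts were tested with edgeR 4.0.16 (TMM, quasi-likelihood, no covariates, Benjamini-Hochberg) in R 4.3.3 over genes with at least 1 TPM in at least 3 libraries. On simulated data with 200 of 13630 genes changed by 1 on the log2 scale, 86.5% were recovered and 2.81% of calls were false. The simulation drew each gene independently, without deviations shared by the genes of a library. Its change was also larger than that of any of the 9 factors, so these rates may not apply to the tests here. Ratios and transcript shares used exact permutation tests (scipy), 3 and 5 in number. Alternatives were DESeq2 1.42.0, limma 3.58.1 on TPM, other scalings and filters, a replicate block and leaving out each library; removal of a length trend was added after seeing the data. The members and lists were chosen with earlier results of these data known. Named are all members and tested receptors, up to 4 called genes of each other list or its 2 largest differences where none was called, and the 2 genes most like each member; 2 genes that this rule names are not reported here. *Mael* was named outside this rule, after its value was seen. Intervals come from the edgeR fit and include the spread between libraries; floors cover counting error only. Same-numbered libraries did not deviate together from their group means, so no pairing was used. By mean squared difference over counting error per gene (smaller is closer), wild-type replicate 1 was nearest to *Meioc* KO replicate 1 (11.5). Against wild-type replicates 2, 3 and 4 it stood at 14.3, 19.9 and 23.6. *Meioc* KO replicate 1 stood at 27.6 and 15.2 against *Meioc* KO replicates 2 and 3. Protein sequences were not used here.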

Additional observations from a re-analysis of the deposited data

Results flagged for a closer look

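Among the 4 wild-type libraries, 4 values stood far from the other 3 by Dixon's test at 95%. Chance alone gives about 1 such value in 20 groups, and 51 groups were examined. *Dhh* was at 75.6 CPM in replicate 2, beside 80.5 to 81.0 CPM in the others. *Trf* was at 53.2 CPM in replicate 3, beside 41.3 to 41.9 CPM, and *Amhr2* was at 623 CPM in the same replicate, beside 524 to 535 CPM. *Acvr1b* was at 28.5 CPM in replicate 1, beside 22.4 to 23.4 CPM. Groups of 3 libraries were not examined in this way.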

How the results depend on the processing

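The number of genes called was 2331 with DESeq2, 2522 and 2506 with limma on log2(TPM + 1) and log2(TPM + 0.1), 109 with a replicate block, and 131 to 2172 with each library left out; the lowest count came without *Meioc* KO replicate 3. Over all 13630 tested genes, scaling on Sertoli markers called 1359 and removal of the length trend called 1728. Of the 9 factors, 2 were called with DESeq2, scaling on Sertoli markers, both limma settings and the length trend removed. With the replicate block 0 were called, and with each library left out 1 to 2. Each count of factors is to be read beside the count of all genes called in the same setting. With the replicate block *Kitl* was at -0.66 (edgeR adjusted p = 0.058). The replicate block was an alternative only, since deviations of same-numbered libraries correlated at 0.01, -0.09 and -0.15. Among the other named genes called by edgeR, *Tex101* kept its call with the replicate block (no such value was computed for *Mael*). *Trf* was called at 0.52 (DESeq2), 0.53 (Sertoli marker scaling) and 0.52 (length trend removed), and its range without each library was 0.40 to 0.72. *Cxcl12* was called at -0.48 and -0.50 with limma. Signs turned for *Inha* (-0.081 to 0.15) and *Dhh* (-0.093 to 0.016) with libraries left out, and for *Inhbb* with limma (-0.015 in both settings). Signs also turned for *Acvr1* (-0.053 with library size only, -0.25 and -0.30 with limma, -0.32 to 0.16 with libraries left out), *Acvr2a* (-0.15 and -0.16 with limma), *Tfr2* (-0.075 and -0.097 with limma, -0.041 to 0.41 with libraries left out), *Star* (-1.65 to 0.44), *Cyp17a1* (-0.27 and -0.31 with limma) and *Cd14* (-0.020 and -0.061 with limma). The cause was not tested. Of 153 alternative values of the 9 factors, 140 kept their direction and side of the threshold. As 8 of the 9 were not called in the main fit, most of these are uncalled values that stayed uncalled. All 27 alternative values of the ratios and the 40 of the transcript shares stayed within 1 SD, taken from the group with the larger one. That SD was 0.69 on the log2 scale for the *Gdnf* to *Kitl* ratio and 8.32 percentage points for Kitl-202. Limits this wide make it a weak check. *Gdnf* rested on 15 to 62 reads in a library.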
